A study of Rattus norvegicus with 372 samples.

Results

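The cell cycle and DNA replication genes described here are a list of 43 genes, 19 that act in or before S phase, when the genome is copied, and 24 that act in G2 and mitosis, when the chromosomes are separated and the cell divides. They were picked by name, as every probe whose gene symbol equals a listed symbol, and the reads of probes for the same gene were added. Of the 43 genes, 40 had a probe in the whole transcriptome (WT) assay, which holds 20946 gene symbols in all, and 40 had a probe in the smaller surrogate (ST) assay. A probe in either assay was found for 42 genes and in both for 38, and Mcm7 had a probe in neither.

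The samples were hepatocytes freshly isolated from male Wistar rats and kept between collagen layers in 96-well plates. Each of 14 chemicals was given at a low and a high concentration for 24 h in medium with 0.5% DMSO, and the vehicle wells received DMSO alone. Every treatment had 3 wells in each of 2 batches, and by the study's methods a batch was the cells of 1 rat. Lysate of each well was read by both assays, in which pairs of detector oligos are ligated on the target RNA and the ligated products are counted.
The vehicle had 3 wells in batch 1 and 6 in batch 2, and so did culture medium without DMSO. All wells, controls included, received insulin, epidermal growth factor and dexamethasone, so every comparison is within cells that were held under a growth factor. The chemicals were acetaminophen, caffeine, chloramphenicol, diclofenac, doxorubicin, indomethacin, isoniazid, ketoconazole, naproxen, ranitidine, simvastatin, sulfasalazine, valproic acid and WY14643. Wells of a batch share a rat, so p-values over wells measure the spread between cultures of the same animals and not the spread between animals.

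Hepatocytes of the adult liver rarely divide, but they leave quiescence when tissue is lost or when growth factors reach them in culture. On the way into S phase, E2F factors switch on the genes that license replication origins, copy DNA and supply nucleotides. Later, the DREAM complex and its successors with B-Myb and FoxM1 govern a set of genes for the spindle, the kinases of mitosis and cytokinesis, through a promoter element called the cell cycle homology region, often beside CCAAT boxes.

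Promoters are shown for members of both classes so that the motifs of the classes can be read side by side. Members of a class did not always move together, and whether they share control through these motifs was not tested. The RefSeq promoter table (build GRCr8) held 33 of the 43 genes, each as 250 bases before and 50 bases after the annotated start. It did not hold Ccna2, Ccne2, Cdc6, Mcm4, Orc1, Rrm2, E2f1, Aurkb, Ube2c and Pbk. Shown are the S phase genes and the mitosis genes with an entry that were called in the most treatments with the same sign in both batches, a pair of each class, with ties broken by the alphabetical order of the symbols. Rfc4 was tied with Tk1 at 9 treatments, and Aurka and Mki67 with Stmn1 at 11. Both strands were searched for the cell cycle homology region (TTTGAA or TTCGAA), the CCAAT box (CCAAT) and the E2F core, which was read as TTCCCGC, as the variant TTCGCGC, as the form TTGCCGC, or lastly as the form TTGGCGC, and capitals mark the matches on either strand.
Tyms: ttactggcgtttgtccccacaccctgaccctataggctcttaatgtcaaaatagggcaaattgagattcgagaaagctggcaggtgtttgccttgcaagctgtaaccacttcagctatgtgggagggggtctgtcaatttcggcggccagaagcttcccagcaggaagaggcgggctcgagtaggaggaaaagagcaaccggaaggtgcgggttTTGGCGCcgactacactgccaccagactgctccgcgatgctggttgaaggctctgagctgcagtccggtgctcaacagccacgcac
Rfc4: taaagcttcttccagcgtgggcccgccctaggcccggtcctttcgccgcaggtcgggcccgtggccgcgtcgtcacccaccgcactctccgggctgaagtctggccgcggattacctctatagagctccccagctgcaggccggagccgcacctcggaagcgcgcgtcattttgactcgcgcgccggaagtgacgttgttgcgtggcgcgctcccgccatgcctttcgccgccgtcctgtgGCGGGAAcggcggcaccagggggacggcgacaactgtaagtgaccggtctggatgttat
Aurka: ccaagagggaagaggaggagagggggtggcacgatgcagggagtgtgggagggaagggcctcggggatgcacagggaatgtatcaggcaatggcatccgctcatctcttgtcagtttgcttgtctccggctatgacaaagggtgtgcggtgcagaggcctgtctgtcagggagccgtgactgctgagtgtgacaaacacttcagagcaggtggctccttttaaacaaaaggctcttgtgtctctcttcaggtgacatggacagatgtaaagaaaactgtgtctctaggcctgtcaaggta
Mki67: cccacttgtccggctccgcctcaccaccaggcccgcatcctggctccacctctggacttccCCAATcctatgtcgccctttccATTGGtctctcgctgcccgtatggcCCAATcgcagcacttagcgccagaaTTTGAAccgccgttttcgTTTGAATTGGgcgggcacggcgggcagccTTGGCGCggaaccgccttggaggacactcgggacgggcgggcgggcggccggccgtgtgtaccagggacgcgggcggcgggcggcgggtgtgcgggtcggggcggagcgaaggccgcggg
The Tyms window is chr9:120776034-120776333 on the minus strand, the Rfc4 window chr11:91254023-91254322 on the plus strand, the Aurka window chr3:181560720-181561019 on the minus strand, and the Mki67 window chr1:199952544-199952843 on the minus strand. The windows of Tyms and Rfc4 held 1 E2F core each. That of Mki67 held 7 matches, of which 4 were CCAAT boxes, 2 were TTTGAA and 1 was an E2F core. In the Aurka window none of these motifs were found. Only the bases around the annotated start were searched, and whether that start is used in these cells was not tested. The lack of a match therefore does not show that the Aurka promoter lacks these elements.
Over the list, an E2F core was present in 9 of 13 S phase promoters and 6 of 20 mitosis promoters, against 9.52% of all 33469 promoters in the table. A cell cycle homology region was present in 3 of 13 S phase promoters and 15 of 20 mitosis promoters, against 19.7% of all. A CCAAT box was present in 7 of 13 and 17 of 20, against 37.5% of all. These are matches of letters in the windows of annotated starts, the Aurka window included, and binding at them was not measured.

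Levels are given as CPM, the reads of a gene scaled to the size of its library with TMM factors, and 1 read was worth between 0.111 and 0.437 CPM, depending on the depth of the well. In the WT assay, 29 of the 40 genes reached a mean of 10 reads over all wells and were tested, 13 of them S phase and 16 mitosis genes. The other 11 were not tested, namely Cdc45, Fen1, Rrm2 and Mybl2 of S phase and Ccnb1, Cdk1, Cdc20, Cdc25b, Kif11, Ube2c and Pbk of mitosis. Their means ran from 0.0215 reads for Kif11, which was at 0 in 182 wells, to 9.7 reads for Rrm2. No WT probe carried the symbols Ccnb2 and E2f1, and ST probes did. Cdc20, which activates the anaphase promoting complex, had a mean of 1.58 reads by its WT probe and 76.9 by a different ST probe, while Pcna had 233 and 229 by different probes. The levels of different genes are therefore not compared here as amounts of RNA.
In the 9 vehicle wells, the tested members with the highest CPM were Stmn1, which destabilises microtubules, at 299 ± 96.5 (SD), Tyms, the thymidylate synthase, at 73.6 ± 7.48, Rrm1, a subunit of ribonucleotide reductase, at 35.9 ± 7.02, the sliding clamp Pcna at 27.6 ± 4.25, the helicase subunit Mcm2 at 19 ± 8.77 and the cytokinesis scaffold Anln at 18.4 ± 7.7. Among the tested members, those with the lowest CPM were the origin recognition subunit Orc1 at 2.01 ± 1.09, the licensing factor Cdc6 at 2.22 ± 1.03, the checkpoint kinase Bub1b at 2.27 ± 1.23, the mitotic kinase Plk1 at 2.4 ± 1.65, the central spindle motor Kif23 at 2.53 ± 1.54 and cyclin A, Ccna2, at 2.98 ± 1.44. The last 6 members had means of 12.8 to 21.1 reads over all wells.

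The vehicle wells of the batches differed. Mcm5, another helicase subunit, read 8.27, 8.2 and 7.32 CPM in batch 1 and 2.13 to 2.89 CPM, with a median of 2.51, in batch 2. Mcm3 read 11.5, 11.4 and 11.6 CPM against 2.6 to 6.59, and Plk1 had a mean of 4.38 ± 1.21 against 1.4 ± 0.471 CPM. Tyms and Aspm overlapped between the batches, and Ccne2 was the other way, with 3.24 ± 0.494 CPM in batch 1 and 4.61 ± 0.769 in batch 2. Libraries were also made and sequenced separately for each batch. Rat, isolation, plate and library preparation cannot be told apart here, and each treatment was compared with the vehicle of its own batch. Statements that wells lay above, below or overlapped vehicle refer to the vehicle wells of the same batch.
In batch 1 all vehicle wells lay on 1 plate. Acetaminophen, chloramphenicol, indomethacin, ketoconazole, sulfasalazine and WY14643 lay on another, which held no vehicle well, so in that batch plate and treatment cannot be told apart for these 6 chemicals. In batch 2 both plates held vehicle.
Within batch 2 the summed level of the mitosis genes also differed by plate row. Without Stmn1, which alone made up a median of 73.1% of the sum in vehicle, the 2 vehicle wells of row F read 115 and 121 CPM and the 4 of row G 59.8 to 95.4 CPM. Low-concentration wells showed a like order, with medians of 106 CPM in row B, 164 in C, 178 in D, 168 in E, 136 in F and 92.6 in G. In batch 1 the medians were 102, 131, 176, 138, 143 and 140 CPM in rows B to G, and the vehicle wells read 122 to 178 CPM. Vehicle lay only in rows F and G. Caffeine and sulfasalazine lay in row F and chloramphenicol and ranitidine in row G, so vehicle of the same row existed for these chemicals, while doxorubicin lay partly in those rows. The other 9 chemicals lay in rows B to E, which held no vehicle well, so in their comparisons with vehicle row and chemical cannot be told apart. The comparisons were therefore also run against the vehicle wells of each row alone and between the concentrations of a chemical, which lay in neighbouring wells.

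**Figure D1:**
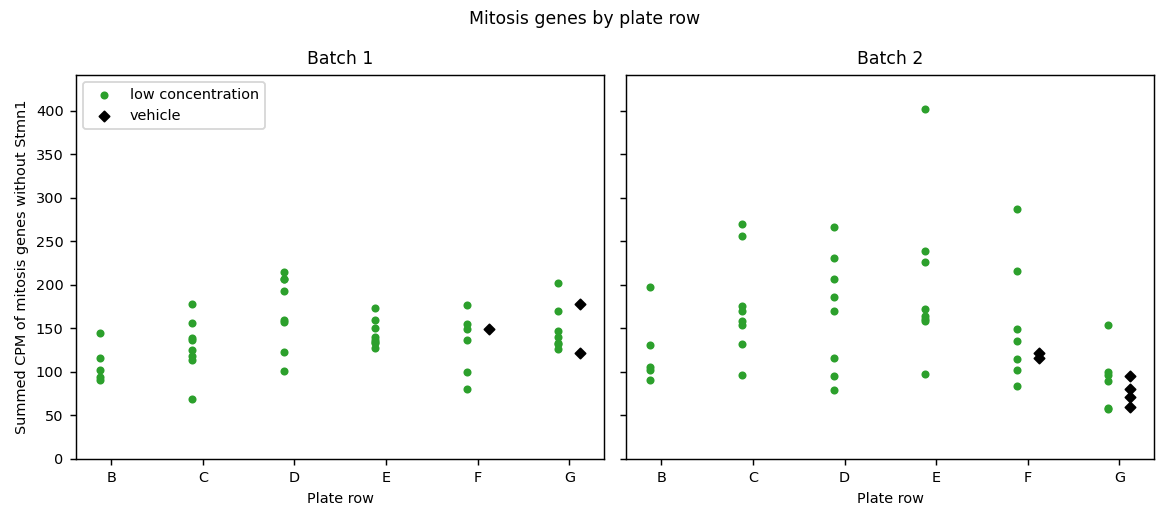
Summed CPM of the mitosis genes without Stmn1 (y axis) by plate row (x axis) in low-concentration wells (green points) and vehicle wells (black diamonds), batch 1 left and batch 2 right. The vehicle wells of batch 2 sit at 59.8 to 121 CPM, at or below most low-concentration wells of rows C to E.

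Library depth was 2289425 to 8975207 reads in the WT assay and 558190 to 2210264 in the ST assay, the shallowest WT well being a medium well of batch 2. Hepatocyte markers (albumin, transthyretin and 5 others) summed to 27009 to 35521 CPM in vehicle. Endothelial markers summed to at most 3.57 CPM and none reached 10 reads on average. Kupffer cell and leukocyte markers summed to 28.8 to 61.5 CPM, with Ptprc and Marco under the filter, and stellate cell and fibroblast markers to 34.4 to 166 CPM, of which the collagens Col1a2 and Col3a1 were tested. In bulk wells, fewer cells of a type and less RNA per cell cannot be told apart. The median of all 10191 genes tested stayed within 0.0457 of 0 on the log2 scale in every comparison.

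Over the 14 high concentrations, mitosis genes were lower in 50% of gene and treatment pairs and S phase genes in 31.9%. The pairs share wells and vehicle, and the difference between the classes was not tested. A gene was called at an adjusted p under 0.05 by edgeR's quasi-likelihood test, adjusted by the Benjamini-Hochberg method over all 10191 genes tested in a comparison. Of 224 mitosis gene and treatment pairs, 112 were lower and 10 higher. Of 182 S phase pairs, 58 were lower and 26 higher. For all genes over the same treatments, 25.5% of pairs were lower and 25.4% higher, and for all members it was 41.9% and 8.87%. Over the 14 low concentrations the balance was the other way, with 31 of 224 mitosis pairs higher and 1 lower, 11 of 182 S phase pairs higher and 4 lower, against 4.9% higher and 4.5% lower for all genes. The higher calls at low concentrations depended on the batch and on the vehicle wells. Over the 406 low-concentration pairs, 42 were higher with both batches, 0 by edgeR in batch 1 fitted alone, where 5 were higher at an unadjusted p under 0.05, and 91 in batch 2 fitted alone. Of all genes, 2.73% of pairs were higher in batch 1 alone and 4.58% in batch 2 alone. A count without the share of all genes in the same fit, at the same threshold, cannot be read as particular to the members. This holds for all counts at an unadjusted p given here and below. Against the vehicle wells of row F only, 7 of the pairs were higher, against 2.64% of all genes, and against those of row G only, 47, against 4.08%. The lower calls at high concentrations, 170 with both batches, depended on the batch as well. They numbered 215 in batch 1 alone, against 17.7% of all genes, 89 in batch 2 alone, against 22.7%, and 75 in batch 2 with vehicle wells of the same plate, against 22.9%. Against the vehicle wells of rows F and G they numbered 153 and 145, against 20.3% and 23.6% of all genes, and against the low concentration of the same chemical 194, against 20.7%.
The median log2 fold change (L2FC) of the S phase genes lay above that of the mitosis genes in 10 of 14 high concentrations and 3 of 14 low ones. At high concentrations it lay above in 12 of 14 comparisons within batch 1 and 10 of 14 within batch 2. The level of the medians moved with the batch. Over the 28 treatments, the mitosis median was higher in batch 2 than in batch 1 in 26 and the S phase median in 28. Of the 256 member and comparison pairs called, 230 had the same sign in both batches, and 102 were called in each batch fitted alone. Calls from a fit of both batches tend to have the same sign in both. No share over all genes stands beside these counts, so they do not measure agreement particular to the members. A test of the difference between the batches was past the threshold for 63 of 841 member pairs (7.49%), against 2.36% of pairs over all genes.

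**Figure D2:**
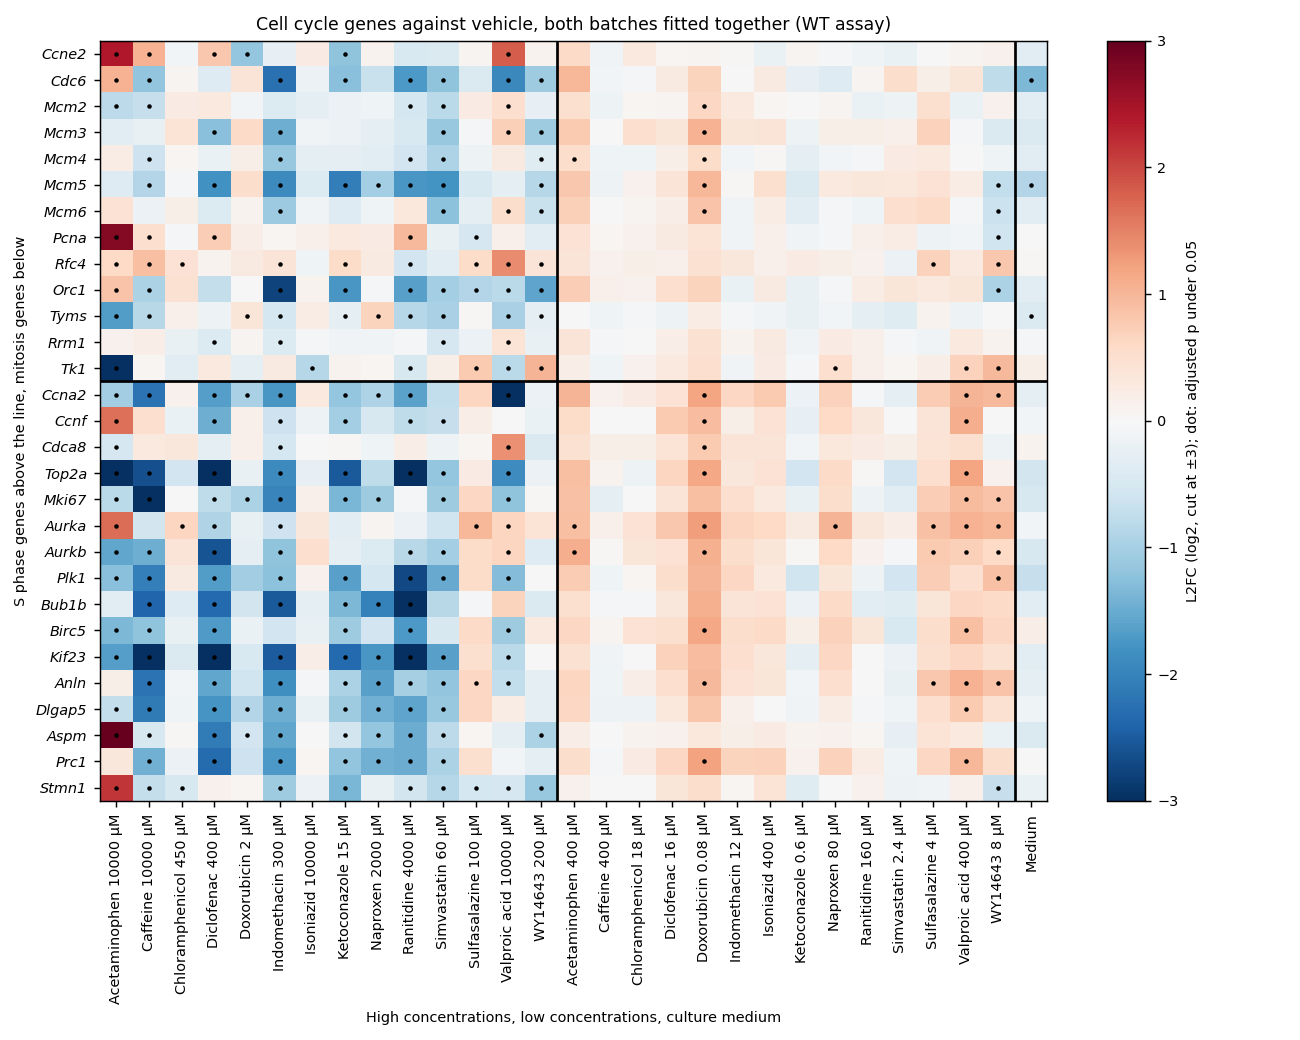
L2FC against vehicle (colour, log2, cut at 3 in either direction) of the 29 tested genes (rows) in 28 treatments and medium (columns), both batches fitted together, with a dot where the gene was called. Blue fills the mitosis rows of caffeine, diclofenac, indomethacin, ketoconazole, naproxen, ranitidine and simvastatin at the high concentration, while acetaminophen and valproic acid at 10000 µM mix both colours.

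**Figure D3:**
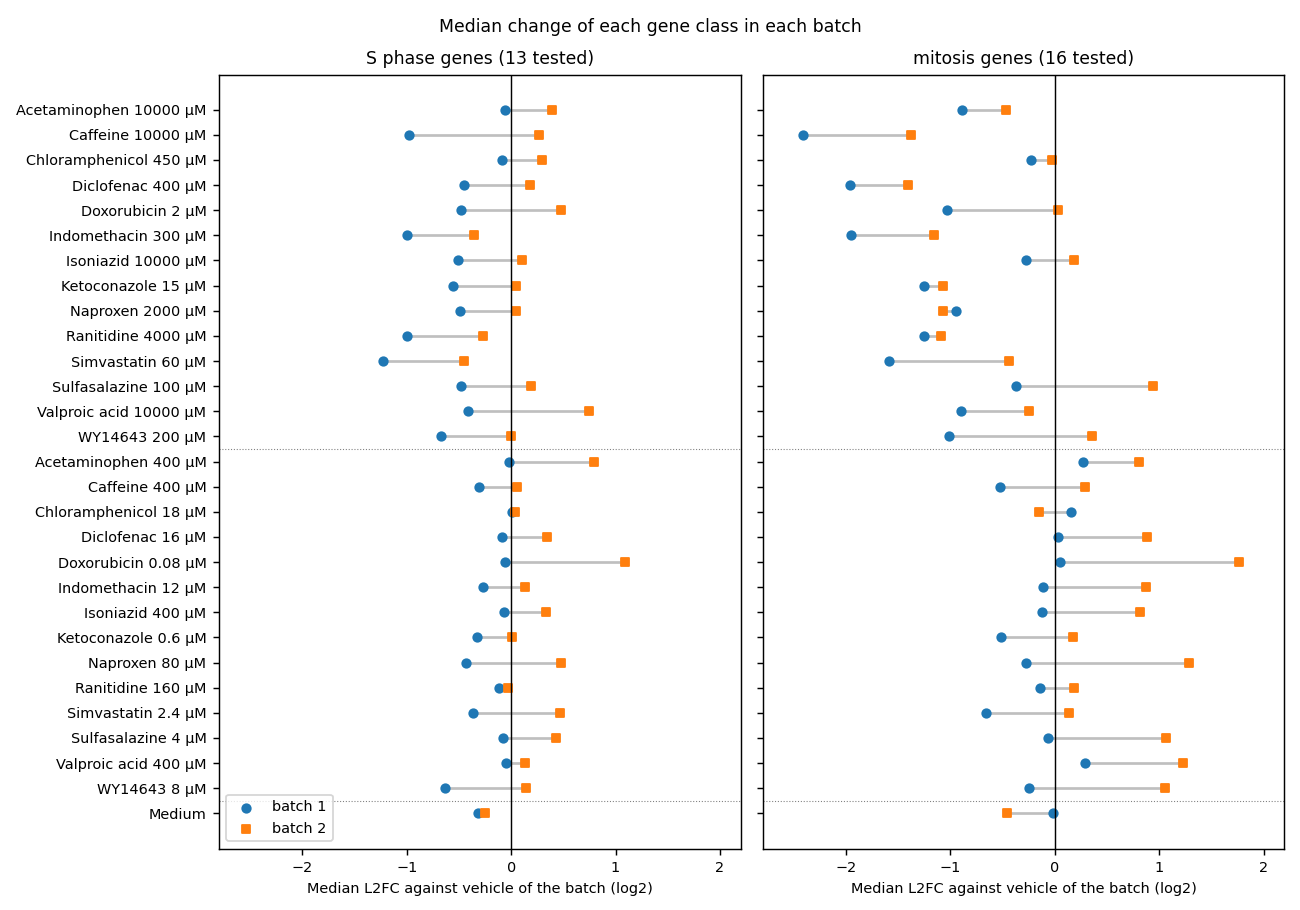
Median L2FC (x axis, log2) of the 13 S phase genes (left) and the 16 mitosis genes (right) in each comparison (y axis), batch 1 as blue circles and batch 2 as orange squares. Batch 2 lies right of batch 1 in nearly all treatments, and both batches lie left of 0 for the mitosis genes of 10 high concentrations.

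With 10000 µM caffeine, 13 of 16 mitosis genes were lower and none higher, with a class median L2FC of -1.75, while the S phase genes split into 6 lower and 3 higher, with a median of -0.22. Of all genes, 34.6% were higher and 31.6% lower. Kif23, the motor that bundles the central spindle, read 0.389, 0 and 0 CPM in batch 1 and 0, 0.127 and 0.559 in batch 2, against 3.48, 2.67 and 5.79 and 0.433 to 3.08 in vehicle. Only 7 reads of Kif23 were left over the 6 wells, and the wells overlapped vehicle in batch 2 alone (L2FC -3.63 ± 0.55 (SE), adjusted p = 1.94e-09). Mki67, the proliferation marker that coats mitotic chromosomes, read 2.72, 2.21 and 0.45 CPM and 1.46, 1.4 and 1.68, below all vehicle wells, which read 20.9, 14.6 and 30.5 in batch 1 and 8.52 to 17.9 in batch 2 (L2FC -3.24 ± 0.40, adjusted p = 1.18e-12). Top2a, the topoisomerase that untangles sister chromatids, read 0.972, 0.402 and 0.225 CPM and 0, 1.9 and 0.978, against 7.19, 6.95 and 6.98 and 2.46 to 7.55 in vehicle (L2FC -2.64 ± 0.45, adjusted p = 1.02e-07), again without overlap.
The S phase median was -0.98 in batch 1 and 0.27 in batch 2, and the mitosis median -2.42 and -1.38. The difference between the batches was past the threshold for 5 members, 4 of them S phase genes, against 8.78% of all genes. Ccne2, the E-type cyclin that starts S phase, read 9.14, 6.83 and 10.8 CPM and 7.07, 5.59 and 8.67, against 3.48, 2.67 and 3.57 and 3.83 to 5.98 in vehicle (L2FC 1.05 ± 0.21, adjusted p = 3.12e-06), above vehicle in batch 1 and overlapping it in batch 2. Cdc6, which loads the replicative helicase, fell to 1.36, 1.81 and 1.58 CPM and 0.244, 0.762 and 0.699, against 3.6, 3.74 and 3.4 and 1.33 to 1.88 (L2FC -1.18 ± 0.38, adjusted p = 0.00442). Orc1 read 1.36, 1.2 and 0.9 CPM and 1.59, 0.635 and 0.559, against 2.28, 3.39 and 4.08 and 0.996 to 1.92 (L2FC -0.94 ± 0.36, adjusted p = 0.0155). Cdc6 lay below vehicle in both batches and Orc1 in batch 1 alone. Kupffer cell markers moved in the same wells, with 4 of 5 tested lower and a sum of 6.15 to 15.3 CPM. Both tested collagens were lower, 3 of 7 hepatocyte markers were higher and 3 lower, with a sum of 14426 to 24621 CPM, and 1 of 3 tested biliary markers was lower. Their part in the result was not tested.

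With 300 µM indomethacin, more members were called than with any other of the 28 treatments when both batches were fitted together. Within a batch the order was another. In batch 1, 10000 µM caffeine led with 25 members against 22, and in batch 2, 0.08 µM doxorubicin led with 26 against 14. With indomethacin and both batches, 15 mitosis and 8 S phase genes were lower and 1 S phase gene higher. Of all genes, 27.6% were lower and 27.1% higher. The class medians were -1.51 for mitosis and -0.52 for S phase. Origin licensing genes had the largest changes of S phase. Orc1 read 0, 0.553 and 0.172 CPM in batch 1 and 0.611, 0.245 and 0 in batch 2 (L2FC -2.78 ± 0.46, adjusted p = 6.48e-08), Cdc6 0, 0.921 and 0.862 and 0.244, 0.245 and 0.588 (L2FC -2.25 ± 0.44, adjusted p = 4.14e-06), and Mcm5 0.776, 0.921 and 1.21 and 1.59, 1.22 and 0.882 (L2FC -1.91 ± 0.35, adjusted p = 8.42e-07). All 3 genes lay below every vehicle well of their batch.
Of the mitosis genes, Mki67 read 2.33, 5.89 and 3.79 CPM and 1.83, 6.86 and 2.94, below every vehicle well (L2FC -1.99 ± 0.35, adjusted p = 2.84e-07). Bub1b, a kinase of the spindle checkpoint, read 0.194, 0.553 and 0.345 CPM and 0.244, 0.735 and 0.147, against 3.24, 2.85 and 4.26 and 0.578 to 2.99 in vehicle (L2FC -2.53 ± 0.53, adjusted p = 1.72e-05). Kif23 read 0.194, 1.11 and 0.345 CPM and 0.366, 0.245 and 0.441 (L2FC -2.49 ± 0.46, adjusted p = 1.07e-06). The last 2 genes were below vehicle in batch 1 and just overlapped its lowest well in batch 2. Of the hepatocyte markers, 2 of 7 were lower and 2 higher, while 2 of 3 tested biliary markers, 4 of 5 Kupffer cell markers and both collagens were lower. Their part in the result was not tested.

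With 4000 µM ranitidine, 13 mitosis and 8 S phase genes were lower and 1 S phase gene was higher, against 33.9% and 32.3% of all genes, with medians of -1.49 and -0.53. Bub1b gave 2 reads in the 3 wells of each batch (0, 0.376 and 0 CPM, then 0, 0.228 and 0; L2FC -4.37 ± 0.67, adjusted p = 4.57e-09). Kif23 read 0.158, 0.188 and 0 CPM and 0.216, 0.114 and 0 (L2FC -4.25 ± 0.57, adjusted p = 3.76e-11), and Top2a 0.79, 0.752 and 0.365 and 0.432, 0.114 and 0.702 (L2FC -3.25 ± 0.48, adjusted p = 9.43e-10). These 3 genes lay below every vehicle well in both batches, while Mki67 was not called (L2FC -0.04 ± 0.29, adjusted p = 0.91).
In S phase, Mcm5 read 1.58, 0.564 and 1.46 CPM and 2.05, 0.799 and 1.05 (L2FC -1.73 ± 0.33, adjusted p = 1.98e-06), Cdc6 0.79, 0.564 and 0.548 and 1.3, 0.342 and 0.351 (L2FC -1.72 ± 0.40, adjusted p = 6.96e-05) and Orc1 1.11, 0.376 and 0.365 and 0.54, 0.571 and 0.819 (L2FC -1.62 ± 0.38, adjusted p = 8.99e-05), all below vehicle. The exception was Pcna, the clamp that holds the polymerase on DNA and also serves repair, which was higher (L2FC 0.96 ± 0.15, adjusted p = 1.09e-08). All 7 hepatocyte markers were lower in these wells, with a median L2FC of -1.58, and so were 4 of 5 Kupffer cell markers and both tested collagens, while the other Kupffer cell marker was higher. Of 3 tested biliary markers, 1 was higher and 1 lower. Their part in the result was not tested. The difference between the batches was past the threshold for 5 members, 4 of them S phase genes, against 13% of all genes.

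Diclofenac, ketoconazole, naproxen and simvastatin at their high concentrations lowered 8 to 14 of the 16 mitosis genes. With 400 µM diclofenac, 14 mitosis and 3 S phase genes were lower and 2 S phase genes higher, against 35.8% and 36% of all genes, and the class medians were -1.69 and -0.19. Kif23 had no read in the 3 wells of batch 2 and an L2FC of -4.03 ± 0.55 over both batches, Top2a one of -3.19 ± 0.47 and Aurkb, the kinase of the chromosomal passenger complex, one of -2.58 ± 0.33. Mcm5 (L2FC -1.81 ± 0.34) and Mcm3 (L2FC -1.26 ± 0.30) were lower and Ccne2 was higher (L2FC 0.80 ± 0.20), each at an adjusted p of at most 0.00026. All 7 hepatocyte markers were lower in these wells, with a median L2FC of -2.45 and a sum of 5041 to 6901 CPM. All 3 tested biliary markers were lower too, with a sum of 5.99 to 9.28 CPM against 37.1 to 47.5 in vehicle, and so were 4 of 5 Kupffer cell markers and both collagens, with 1 Kupffer cell marker higher. Their part in the result was not tested.
With 15 µM ketoconazole, 13 mitosis and 5 S phase genes were lower and 1 S phase gene higher, against 26.3% and 25% of all genes. The largest changes were in Top2a (L2FC -2.51 ± 0.44), Kif23 (L2FC -2.32 ± 0.44) and Plk1 (L2FC -1.64 ± 0.44) of mitosis and Mcm5 (L2FC -2.08 ± 0.35), Orc1 (L2FC -1.75 ± 0.39) and Cdc6 (L2FC -1.26 ± 0.38) of S phase. Of the hepatocyte markers, 5 of 7 were lower and 1 higher, with a sum of 16117 to 20734 CPM, 4 of 5 Kupffer cell markers were lower and 1 higher, and of 3 tested biliary markers 1 was higher and 1 lower. With 2000 µM naproxen, 8 mitosis genes and 1 S phase gene were lower and 1 S phase gene higher, against 26.2% and 27.6% of all genes. Bub1b (L2FC -2.02 ± 0.48), Kif23 (L2FC -1.75 ± 0.41), Anln (L2FC -1.64 ± 0.27) and Mcm5 (L2FC -1.02 ± 0.31) fell and Tyms rose (L2FC 0.66 ± 0.11). Fitted alone, batch 1 had 16 members lower and 1 higher and batch 2 had 7 lower and 1 higher, without a share of all genes. In the naproxen wells 5 of 7 hepatocyte markers were lower and 2 higher, with a sum of 15652 to 17902 CPM, 2 of 3 tested biliary markers were lower and 1 higher, and 3 of 5 Kupffer cell markers and both collagens were lower. The part of these markers in the ketoconazole and naproxen results was not tested.
Simvastatin at 60 µM had class medians close to each other, -0.94 for S phase and -0.90 for mitosis. It lowered 9 S phase and 11 mitosis genes and raised none, against 12.5% of all genes lower and 11.4% higher. Mcm5 (L2FC -1.80 ± 0.34), Mcm6 (L2FC -1.23 ± 0.28), Cdc6 (L2FC -1.20 ± 0.38), Kif23 (L2FC -1.64 ± 0.40), Plk1 (L2FC -1.51 ± 0.43) and Anln (L2FC -1.19 ± 0.26) had the largest changes. Fitted by rat, the S phase and mitosis medians stood at -1.23 and -1.59 for batch 1, against -0.45 and -0.44 for the other, and no member's difference between the batches was past the threshold. Of other markers, 4 of 7 hepatocyte markers were higher and none lower, 2 of 3 tested biliary markers were lower and 1 higher, 1 of 5 Kupffer cell markers was lower and 1 collagen was higher, and their part was not tested. Fitted alone, batch 1 had 23 members lower and batch 2 had 3, against 6.49% and 7.72% of all genes.

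Acetaminophen at 10000 µM moved members far in both directions. Of S phase, 5 genes were higher and 3 lower, and of mitosis 4 were higher and 9 lower, with class medians of 0.21 and -0.61. Of all genes, 38.8% were higher and 40.1% lower, so calls in both directions were common there too. Fitted alone, batch 1 had 6 members higher and 13 lower and batch 2 had 11 higher and 5 lower, without a share of all genes. The S phase median was -0.06 and 0.39 and the mitosis median -0.89 and -0.47. No member's difference between the batches was past the threshold. Pcna read 164, 214 and 205 CPM in batch 1 and 193, 183 and 137 in batch 2, against 31.8, 30.1 and 31.5 and 21.9 to 32.3 in vehicle (L2FC 2.74 ± 0.15, adjusted p = 1.88e-39). Ccne2 read 30.4, 11.7 and 22.3 CPM and 21.1, 10.8 and 28.2 (L2FC 2.41 ± 0.20, adjusted p = 2.55e-24). The salvage kinase Tk1, which phosphorylates thymidine, went the other way, to 1.05, 0.206 and 0.266 CPM and 0.704, 0.282 and 0.473, against 5.16, 4.99 and 5.79 and 4.12 to 4.84 in vehicle (L2FC -3.27 ± 0.29, adjusted p = 5.6e-21), and so did Tyms (L2FC -1.67 ± 0.12, adjusted p = 1.78e-27), so both enzymes of thymidylate supply were lower while the clamp and the cyclin were higher.
Mitosis genes were split in the same way. Aspm, a spindle pole protein, read 150, 78.6 and 122 CPM and 109, 89.2 and 109, against 10.3, 12.5 and 13.1 and 9.65 to 14.5 in vehicle (L2FC 3.23 ± 0.16, adjusted p = 2.49e-44), and Stmn1 read 1378, 1858 and 1735 CPM and 1040.2, 1101 and 1197, against 457, 366 and 423 and 174 to 290 (L2FC 2.16 ± 0.17, adjusted p = 2.9e-25). Top2a fell to 0.349, 0.617 and 0 CPM and 0.845, 0.985 and 0.315 (L2FC -3.06 ± 0.50, adjusted p = 1.64e-08). No well of Pcna, Ccne2, Tk1, Aspm, Stmn1 and Top2a overlapped vehicle in either batch. Aurka, a spindle pole kinase (L2FC 1.68 ± 0.22), and Ccnf, the F-box partner of an E3 ligase (L2FC 1.64 ± 0.22), were the other mitosis genes that rose. In the same wells 4 of 7 hepatocyte markers were lower and 1 higher, 4 of 5 Kupffer cell markers were lower and 1 higher, and both tested collagens were lower. Their part was not tested.

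Valproic acid at 10000 µM, an inhibitor of histone deacetylases besides its use against seizures, also had calls in both directions, as all genes did. Of S phase, 6 genes were higher and 4 lower, and of mitosis 3 were higher and 8 lower, against 33.5% and 33.2% of all genes. Ccne2 read 14.2, 10.3 and 13.7 CPM and 12.8, 13.9 and 17.2 (L2FC 1.81 ± 0.19, adjusted p = 5.31e-16), and Rfc4, a subunit of the clamp loader, 36.8, 30.9 and 29.4 and 26.5, 35 and 37.1, against 12.6, 15 and 19.4 and 8.65 to 13.7 in vehicle (L2FC 1.41 ± 0.16, adjusted p = 3.09e-15). Cdc6 read 0.266, 0.513 and 0.435 CPM and 0.422, 1.11 and 0.509 (L2FC -1.93 ± 0.40, adjusted p = 7.74e-06). All 3 were clear of the vehicle wells in both batches.
Of mitosis, Ccna2, the cyclin that carries a cell through S phase into mitosis, was nearly lost, with 0.797, 0.385 and 0.218 CPM and 0, 0.303 and 0.102, against 5.4, 2.85 and 4.77 and 1.11 to 3.56 in vehicle (L2FC -3.30 ± 0.46, adjusted p = 1.52e-10). Top2a read 1.99, 1.8 and 0.435 CPM and 1.58, 0.908 and 1.02 (L2FC -1.90 ± 0.39, adjusted p = 7.92e-06). Cdca8, the borealin of the chromosomal passenger complex, rose to 9.83, 11.6 and 8.49 CPM and 18.4, 12.7 and 19.6, against 7.31, 4.28 and 5.45 and 3.46 to 6.02 (L2FC 1.37 ± 0.18, adjusted p = 2.83e-11). The calls moved with the batch. Fitted alone, batch 1 had 3 members higher and 15 lower, against 25.5% and 24.6% of all genes, and batch 2 had 12 higher and 5 lower, against 33.5% and 30.4%. The S phase median was -0.42 and 0.75 and the mitosis median -0.90 and -0.25, and the difference between the batches was past the threshold for 7 members, 6 of them S phase genes, against 8.64% of all genes. All 7 hepatocyte markers, 4 of 5 Kupffer cell markers and 1 of 2 collagens were lower in these wells. Of the other markers, 1 Kupffer cell marker was higher, and so was 1 of 3 tested biliary markers, whose sum was 44.7 to 66.2 CPM against 37.1 to 47.5 in vehicle. Their part in the result was not tested.
At 400 µM the same chemical had only higher calls, of 10 mitosis genes and Tk1 (L2FC 0.69 ± 0.17), against 15.1% of all genes higher and 14% lower. Top2a (L2FC 1.18 ± 0.30), Ccnf (L2FC 1.08 ± 0.22) and Anln (L2FC 1.05 ± 0.23) led. No member was called by edgeR in batch 1 fitted alone, where 4 had an unadjusted p under 0.05. No share of all genes at an unadjusted p stands beside these 4. The mitosis median was 0.29 in batch 1 and 1.23 in batch 2. Against the vehicle wells of row F alone, 3 members were called, against 9.37% of all genes higher and 8.16% lower.

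**Figure D4:**
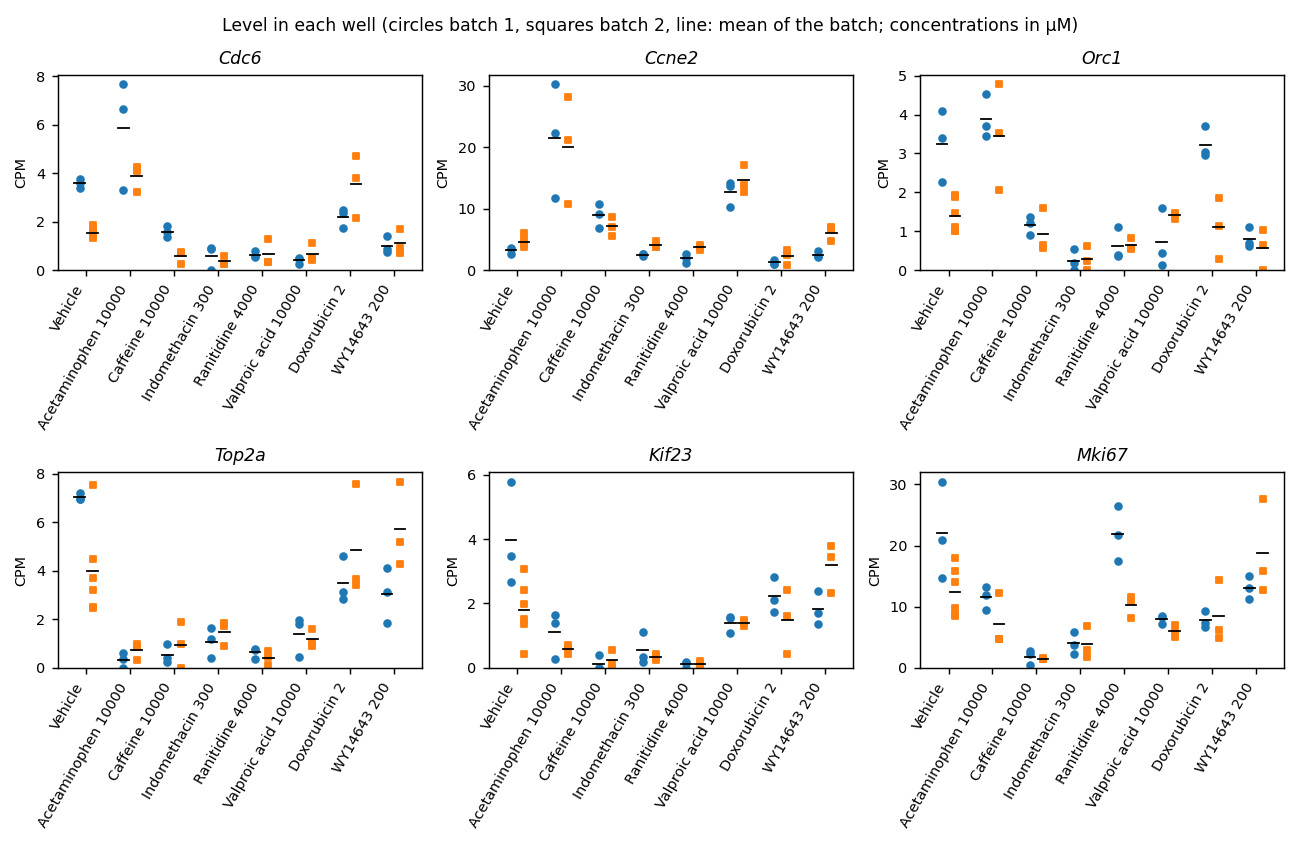
CPM in each well (y axis, linear from 0) of 3 S phase genes (top) and 3 mitosis genes (bottom) in vehicle and 7 treatments (x axis, concentrations in µM), batch 1 as blue circles, batch 2 as orange squares and the batch mean as a line. Ccne2 stands above vehicle with acetaminophen and valproic acid, while Top2a and Kif23 lie near 0 with caffeine, indomethacin and ranitidine.

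Doxorubicin poisons topoisomerase II, the product of Top2a, and stops dividing cells. At 2 µM, 1 S phase gene was higher and 1 lower and 4 mitosis genes were lower with both batches fitted together, against 9.07% of all genes higher and 10.3% lower. Fitted alone, batch 1 had 0 members higher and 11 lower and batch 2 had 7 higher and 1 lower, against 2.48% higher and 3.59% lower of all genes in batch 1 and 9.71% and 10.6% in batch 2. The S phase median was -0.48 in batch 1 and 0.47 in batch 2, and the difference between the batches was past the threshold for 4 members, all S phase genes, against 1.44% of all genes. Ccne2 was at 1.06, 1.71 and 1.04 CPM and 3.28, 2.49 and 0.853, below all vehicle wells of the same batch (L2FC -1.16 ± 0.25, adjusted p = 0.000127). Tyms read 81.1, 90.9 and 87 CPM and 109, 99.5 and 93.8, against 77.4, 62.6 and 82.9 and 62.4 to 81.8 in vehicle (L2FC 0.35 ± 0.11, adjusted p = 0.0129), overlapping it in batch 1 and above it in batch 2. The mitosis genes named were below vehicle in batch 1 and overlapped it in batch 2.
Ccna2 read 0.353, 2.5 and 1.21 CPM and 2.28, 0.732 and 1.71 (L2FC -0.98 ± 0.35, adjusted p = 0.0355), Mki67 6.72, 9.34 and 7.28 and 14.4, 6.15 and 4.83 (L2FC -0.95 ± 0.31, adjusted p = 0.0197), and Dlgap5, which bundles kinetochore fibres, 0.884, 1.45 and 2.08 and 3.14, 1.02 and 1.71, against 2.88, 2.67 and 4.43 and 1.88 to 4.39 in vehicle (L2FC -0.89 ± 0.31, adjusted p = 0.0316). Top2a itself was not called (L2FC -0.23 ± 0.34, adjusted p = 0.7). The mitosis median was -1.03 in batch 1 and 0.03 in batch 2. Kupffer cell markers were far lower in these wells, 4 of 5 tested, with a median L2FC of -4.56 and a sum of 3.85 to 8.49 CPM, and both tested collagens were lower too. Of the hepatocyte markers, 4 of 7 were lower and none higher, with a median L2FC of -0.59 and a sum of 18732 to 26054 CPM, and 1 of 3 tested biliary markers was lower. Their part in the result was not tested.
At 0.08 µM doxorubicin, 5 S phase and 9 mitosis genes were called higher and none lower, against 1.08% and 0.245% of all genes. The S phase genes were the helicase subunits Mcm2, Mcm3, Mcm4, Mcm5 and Mcm6. The rise was that of batch 2. Mcm5 read 7.87, 18.2 and 6.77 CPM in batch 2, above every vehicle well of that batch, and 5.85, 7.05 and 4.64 in batch 1, below every vehicle well of that batch. Mki67 read 26.1, 57.6 and 21.5 CPM and Top2a 13.5, 23.5 and 13.7 in batch 2, against 22.7, 23 and 23.4 and 7.29, 6.93 and 2.85 in batch 1, where both overlapped vehicle. In batch 1 no member was called by edgeR, 0 had an unadjusted p under 0.05, and the L2FC ran from -0.42 to 0.35, while in batch 2 26 were called and it ran from 0.17 to 2.13. Of all genes, 0% were called in batch 1 and 5.16% were higher and 4.58% lower in batch 2.
The difference between the batches was past the threshold for 18 of 29 members, 8 of S phase and 10 of mitosis, against 2.91% of all genes in this comparison. The members named were Aurka (8.12, 6.15 and 10.2 CPM in batch 1 and 11.1, 16.9 and 9.23 in batch 2; L2FC 1.24 ± 0.22), Ccna2 (L2FC 1.19 ± 0.29) and Birc5, the survivin of the passenger complex (L2FC 1.15 ± 0.28). Aurka lay above vehicle in batch 2 and overlapped it in batch 1. Against the vehicle wells of row F alone, no member and 0% of all genes were called by edgeR, 20 members had an unadjusted p under 0.05 and the L2FC of Aurka was 0.99. Without replicate 2, which holds the highest batch 2 well of the genes above, no member was called either, with 16 at an unadjusted p under 0.05. No share of all genes is given for the fit without replicate 2, nor for the counts of 20 and 16 at an unadjusted p. A loss of calls particular to the members is therefore not shown.

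WY14643 activates PPARα, and its class is known to drive division of hepatocytes in living rats. At 8 µM, 6 mitosis genes were higher and 1 lower, and 2 S phase genes were higher and 4 lower, against 28% of all genes higher and 28.2% lower. Aurka (L2FC 0.99 ± 0.23, adjusted p = 9.62e-05), Ccna2 (L2FC 0.98 ± 0.30, adjusted p = 0.0031) and Mki67 (L2FC 0.86 ± 0.28, adjusted p = 0.00629) rose, as did Tk1 (L2FC 0.97 ± 0.18) and Rfc4 (L2FC 0.81 ± 0.16), while Orc1 fell (L2FC -0.94 ± 0.37, adjusted p = 0.0235). Mki67 read 26.7, 22.4 and 19.5 CPM in batch 1, within the vehicle wells, and 46.7, 29.2 and 24.2 in batch 2, above them. Mcm5 read 3.22, 3.07 and 1.48 CPM in batch 1, below vehicle, and 3.69, 2.26 and 1.66 in batch 2, overlapping it. Fitted alone, batch 1 had 0 members higher and 11 lower and batch 2 had 12 higher and 1 lower, against 19.3% higher and 17.4% lower of all genes in batch 1 and 26% and 27.2% in batch 2. The mitosis median was -0.25 in batch 1 and 1.05 in batch 2. The difference between the batches was past the threshold for 6 members, against 1.62% of all genes. With the vehicle wells of row F alone 5 members were called in place of 13. No share of all genes in the row F fit stands beside this, so a drop particular to the members is not shown.
At 200 µM, 7 S phase genes were lower and 2 higher and 2 mitosis genes were lower, against 25.3% and 26% of all genes. Orc1 read 0.615, 0.687 and 1.11 CPM and 0.647, 0 and 1.04 (L2FC -1.58 ± 0.38, adjusted p = 0.000223), Mcm3 2.31, 2.92 and 3.5 and 1.81, 2.62 and 6.25 (L2FC -1.08 ± 0.30, adjusted p = 0.00125), and Cdc6 1.38, 0.859 and 0.737 and 0.906, 0.691 and 1.69 (L2FC -1.07 ± 0.37, adjusted p = 0.0106). All 3 were below vehicle in batch 1 and overlapped it in batch 2. Stmn1 read 97.8, 159 and 138 CPM and 139, 118 and 170, below every vehicle well (L2FC -1.13 ± 0.18, adjusted p = 1.45e-08), and Aspm 4, 6.01 and 4.24 and 4.92, 5.53 and 10.9, overlapping it in batch 2 (L2FC -0.95 ± 0.19, adjusted p = 4.71e-06). Tk1 was higher at this concentration too (L2FC 1.03 ± 0.17, adjusted p = 8.32e-08). Fitted alone, batch 1 had 20 members lower and 1 higher and batch 2 had 2 lower and 3 higher, against 17.4% lower and 18.7% higher of all genes in batch 1 and 21.9% and 21.8% in batch 2, with mitosis medians of -1.01 and 0.36. The difference between the batches was past the threshold for 3 members, against 1.03% of all genes. Of the hepatocyte markers, 3 of 7 were higher and 2 lower at 200 µM, while 1 of 3 tested biliary and 1 of 5 Kupffer cell markers were higher and 1 of each lower. At 8 µM 1 hepatocyte marker was higher and 1 lower, and 1 biliary marker and 1 collagen were higher. The part of these markers was not tested.

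**Figure D5:**
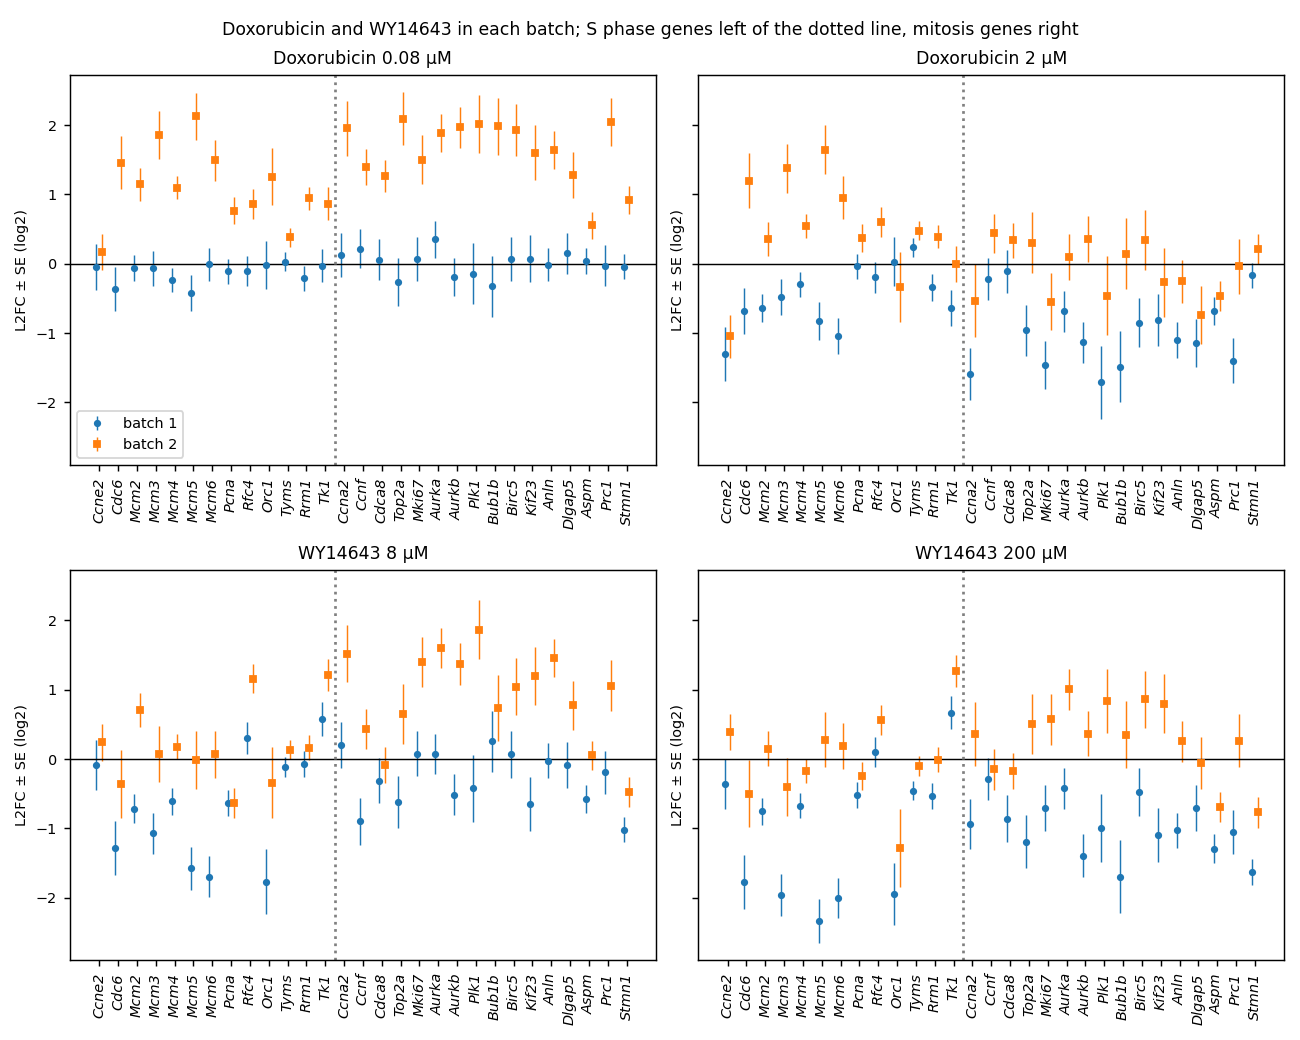
L2FC with its SE (y axis, log2) of the 29 tested genes (x axis, S phase left and mitosis right of the dotted line) with both concentrations of doxorubicin and WY14643, fitted in batch 1 (blue circles) and batch 2 (orange squares) alone. With 0.08 µM doxorubicin batch 1 lies along 0 and batch 2 at 0.17 to 2.13.

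Chloramphenicol at 450 µM raised Rfc4 (L2FC 0.43 ± 0.16) and Aurka (L2FC 0.64 ± 0.23) and lowered Stmn1 (L2FC -0.48 ± 0.17), against 16.1% of all genes higher and 17.2% lower. With the batches fitted alone, Rfc4 was called in batch 2 only, Stmn1 in batch 1 only and Aurka in neither. Isoniazid at 10000 µM lowered only Tk1 of the 29 genes (L2FC -0.85 ± 0.20, adjusted p = 0.00025) with both batches, against 17.3% lower and 17.4% higher. Fitted alone, batch 1 had 5 members lower, against 10.5% of all genes, and batch 2 had 1 lower and 1 higher, against 15.6% and 14.1%. Of the hepatocyte markers, 6 of 7 were lower with isoniazid, with a sum of 18329 to 24590 CPM, 2 of 5 Kupffer cell markers were lower and 1 higher, 1 of 3 tested biliary markers was higher and 1 collagen lower. With chloramphenicol, 2 hepatocyte, 2 biliary and 2 Kupffer cell markers and both collagens were lower and 1 hepatocyte marker higher. The part of these markers was not tested. Sulfasalazine at 100 µM had 2 higher and 2 lower S phase genes and 2 higher and 1 lower mitosis genes, against 21.3% and 19.6%, with Tk1 (L2FC 0.78 ± 0.17) and Aurka (L2FC 1.00 ± 0.22) up and Orc1 (L2FC -0.87 ± 0.35), Pcna (L2FC -0.51 ± 0.16) and Stmn1 (L2FC -0.52 ± 0.17) down. With sulfasalazine, batch 1 alone had 1 member higher and 5 lower and batch 2 alone 11 higher and 1 lower, against 10.5% higher and 7.74% lower of all genes in batch 1 and 22.5% and 22.3% in batch 2. Its mitosis median was -0.37 and 0.94, and the difference between the batches was past the threshold for 7 members, against 2.55% of all genes.
Among the low concentrations, 400 µM acetaminophen raised Mcm4 (L2FC 0.53 ± 0.15), Aurkb (L2FC 1.08 ± 0.25) and Aurka (L2FC 0.90 ± 0.23), against 0.716% of all genes higher and 0.667% lower. In batch 2 alone 11 members were higher with this treatment, against 1.25% of all genes. Sulfasalazine at 4 µM raised 1 S phase gene, Rfc4 (L2FC 0.70 ± 0.16), and 3 mitosis genes, among them Aurka (L2FC 0.88 ± 0.23) and Anln (L2FC 0.82 ± 0.23), against 9.35% and 8.03%, and batch 2 alone had 10 members higher, against 6.6% of all genes. Naproxen at 80 µM raised Tk1 (L2FC 0.51 ± 0.18) and Aurka (L2FC 1.02 ± 0.22), against 8.64% and 7.4%. In batch 1 alone 0 members were higher and 3 lower with this treatment, and in batch 2 alone 9 were higher and 0 lower, against 6.42% higher and 2.91% lower of all genes in batch 1 and 4.69% and 3.77% in batch 2.
No member was called by edgeR or by DESeq2 with the other 8 low concentrations when both batches were fitted together. By edgeR in batch 2 alone, 5 members were higher with indomethacin, 2 with diclofenac and 1 with simvastatin, against 2.93%, 0.55% and 1.24% of all genes, and in batch 1 alone 1 was lower with ketoconazole, against 0.137%. With both batches, an unadjusted p under 0.05 was reached there by 8 members with diclofenac, 5 with indomethacin, 5 with isoniazid, 2 with simvastatin, 1 with ketoconazole, 1 with ranitidine and 0 with caffeine and chloramphenicol. The shares of all genes that follow are of adjusted calls, so they are not a background for the counts at an unadjusted p. Of all genes, 0.0883% were higher and 0.0294% lower with 400 µM caffeine, 0.0687% and 0.0196% with 18 µM chloramphenicol, 0.118% and 0.0196% with 16 µM diclofenac, and 3.53% and 2.34% with 12 µM indomethacin. With 400 µM isoniazid it was 0.0196% and 0%, with 0.6 µM ketoconazole 0.844% and 0.775%, with 160 µM ranitidine 0.0393% and 0.0196%, and with 2.4 µM simvastatin 1.13% and 1.28%.
Medium without DMSO lowered 3 S phase genes and no mitosis gene, against 5.1% of all genes lower and 7.51% higher. Cdc6 (L2FC -1.35 ± 0.34, adjusted p = 0.00263), Mcm5 (L2FC -0.88 ± 0.27, adjusted p = 0.0167) and Tyms (L2FC -0.43 ± 0.10, adjusted p = 0.000986) were lower. Tyms read 51.2, 63.7 and 66.3 CPM in batch 1, overlapping vehicle, and 40.7 to 59.3 CPM in the 6 wells of batch 2, below it. The same 3 genes were therefore higher with DMSO alone than without it.

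The calls by role are counts over the 14 high and 14 low concentrations, where a tested gene was on average lower in 25.5% and higher in 25.4% of high ones, so a count of 3 or 4 high concentrations lies near the share of all genes. By role, the helicase subunits Mcm2 to Mcm6 were lower at 3 to 8 high concentrations each, most often Mcm5, and each was higher with 0.08 µM doxorubicin. Mcm2, Mcm3 and Mcm6 were also higher with 10000 µM valproic acid, Mcm4 with 400 µM acetaminophen, and Mcm5 and Mcm6 were lower with 8 µM WY14643. The origin factors Orc1 and Cdc6 were lower at 8 and 7 high concentrations and higher with 10000 µM acetaminophen alone, and Orc1 was also lower with 8 µM WY14643. Rfc4 went against them, higher at 8 high and 2 low concentrations and lower with ranitidine. Of nucleotide supply, Tyms was lower at 8 high concentrations and higher at 2, Rrm1 lower at 3 and higher at 1, and Tk1 lower at 4 high and higher at 2 high and 3 low concentrations. Ccne2 was higher at 4 high concentrations and lower at 2, and Pcna higher at 4 and lower at 1 and with 8 µM WY14643.
Among mitosis genes, Ccna2, Mki67, Kif23, Dlgap5, Aspm and Stmn1 were each lower at 9 high concentrations, and Kif23 and Bub1b were never called higher. Aurka stood apart, with 4 higher and 2 lower calls at high concentrations and 6 higher at low ones. Aspm and Stmn1 were higher with 10000 µM acetaminophen only.

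Other genes of the cycle were read from lists beside the members. Of the G1 cyclins and kinases, 7 of 9 were tested. Ccnd1, the cyclin D1 that carries growth factor signals into the cycle, was lower with caffeine (L2FC -4.87 ± 0.35), 10000 µM acetaminophen (L2FC -3.51 ± 0.31), indomethacin (L2FC -1.67 ± 0.25) and WY14643 at 200 µM (L2FC -1.66 ± 0.25), and higher with 2 µM doxorubicin (L2FC 1.62 ± 0.21). Cdk6, its kinase partner, was lower with caffeine (L2FC -2.53 ± 0.14), indomethacin (L2FC -1.78 ± 0.13), WY14643 at 200 µM (L2FC -1.72 ± 0.13), acetaminophen (L2FC -1.65 ± 0.13) and ranitidine (L2FC -1.29 ± 0.13). Over the list, the counts of higher and lower were 1 and 5 with acetaminophen, 2 and 3 with caffeine, 1 and 4 with indomethacin, 1 and 1 with ranitidine, 2 and 3 with valproic acid, 1 and 0 with doxorubicin and 2 and 4 with WY14643, each at the concentration given well values above. Beside these and the following counts stand the shares of all genes given above, such as 38.8% higher and 40.1% lower with acetaminophen and 34.6% and 31.6% with caffeine, and no count of a list was tested against them.
Of 17 brakes on the cycle, 11 were tested. Cdkn1a, the p21 inhibitor that p53 induces, rose with acetaminophen (L2FC 2.97 ± 0.17), caffeine (L2FC 1.75 ± 0.17), doxorubicin at 2 µM (L2FC 1.45 ± 0.17), ranitidine (L2FC 1.23 ± 0.17) and valproic acid (L2FC 1.09 ± 0.17). Rb1, the retinoblastoma protein that holds E2F factors, rose with valproic acid (L2FC 2.37 ± 0.08), WY14643 (L2FC 1.80 ± 0.08), caffeine (L2FC 1.64 ± 0.08), ranitidine (L2FC 1.25 ± 0.08) and indomethacin (L2FC 0.57 ± 0.08). The counts of higher and lower were 7 and 3 with acetaminophen, 5 and 2 with caffeine, 2 and 4 with indomethacin, 7 and 2 with ranitidine, 3 and 2 with valproic acid, 1 and 2 with doxorubicin and 1 and 5 with WY14643. Cdkn1a and Rb1 are named where they rose, and the lower brakes behind these counts are not named. The named genes do not stand for the list, which had more lower than higher calls with indomethacin, doxorubicin and WY14643.
Of 9 checkpoint genes and regulators of mitotic genes, 8 were tested, and Foxm1 was under the filter. Lin54, the DNA binding subunit of DREAM, rose with acetaminophen (L2FC 2.31 ± 0.10), caffeine (L2FC 1.62 ± 0.10), valproic acid (L2FC 1.57 ± 0.10), ranitidine (L2FC 1.45 ± 0.10) and WY14643 (L2FC 0.58 ± 0.11). Counts of higher and lower were 5 and 2 with acetaminophen, 1 and 3 with caffeine, 2 and 5 with indomethacin, 3 and 1 with ranitidine, 5 and 0 with valproic acid, 0 and 0 with doxorubicin and 2 and 1 with WY14643. Lin54 does not stand for this list, which had more lower than higher calls with caffeine and indomethacin. The lower genes are not named. For doxorubicin, none of these 8 genes was called by edgeR.

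The ST assay read the same lysates with its own probe set, in which 28 members passed the filter of 10 reads. Of 215 pairs called by WT among the 24 members tested in both, 214 had the same sign by ST, 171 were called the same way and 0 the other way. Of these members, 18 shared a probe number between the assays, and for the 6 with other probes 58 of 59 pairs had the same sign and 41 were called the same way. The exception was Rfc4 with 4000 µM ranitidine, with an L2FC of -0.58 by WT and 0.14 by ST. Over the high concentrations, ST called 47 of 392 pairs higher and 151 lower, against 27.9% and 29.7% of all ST genes, and over the low ones 53 higher and 2 lower, against 6.33% and 5.57%.
ST also held 4 members that WT could not test. Cdc20 was lower with caffeine (L2FC -2.90 ± 0.34), acetaminophen (L2FC -2.62 ± 0.32), diclofenac (L2FC -2.23 ± 0.31) and ranitidine (L2FC -2.03 ± 0.30) at the high concentrations. Ccnb1, the cyclin of mitotic entry, was lower with indomethacin (L2FC -1.95 ± 0.46) and caffeine (L2FC -1.83 ± 0.48). Ccnb2, the other B-type cyclin measured, read 41, 41 and 52.3 CPM with caffeine in batch 1 and 17.8, 18.7 and 20.9 in batch 2, against 116, 94.2 and 103 and 34 to 69.6 in vehicle (L2FC -1.31 ± 0.27, adjusted p = 4.51e-06). E2f1, the activating E2F that is itself an E2F target, read 60.9, 86.8 and 48.4 CPM with 10000 µM acetaminophen and 87, 60.2 and 73 in batch 2, against 9.85, 13.1 and 10.7 and 5.91 to 10.3 in vehicle (L2FC 2.99 ± 0.20, adjusted p = 4.99e-32). Neither overlapped vehicle in either batch.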

How the data were processed

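Counts per probe in both TempO-Seq assays were deposited by the authors, who aligned reads with STAR 2.5.3a (per the labels), to the rn6 genome by the processing notes, as tables of wells by probes. These are reads, not molecules. Each batch is 1 rat, so tests cover the spread between wells of 1 rat per batch only. Depth was 2289425 to 8975207 reads per well in WT and 558190 to 2210264 in ST, and 0 columns of well values were left unused.
Reads of probes with the same symbol were added. Genes with a mean of at least 10 reads over all wells were fitted with edgeR 4.0.16 (limma 3.58.1, R 4.3.3), TMM scaling and a quasi-likelihood test with treatment and batch as terms. P-values were adjusted by the Benjamini-Hochberg method over all genes tested in a comparison, with a threshold of 0.05. The batch, which the labels number and the study's methods describe as a separate rat, is the block of this fit, so treated and vehicle wells are paired by rat. Batches were also fitted alone, and the difference between them was tested as an interaction. The steps were tested on simulated data.
Members and gene lists were chosen with earlier results of these data known. All members are accounted for, and the text names, for each treatment, up to 3 genes of each class with the largest absolute L2FC among those called with the same sign in both batches. Well values are given for those named with 2 µM doxorubicin, 200 µM WY14643 and the 4 treatments with the most calls, to which a tie added another. Well values of Mcm5, Mki67, Top2a and Aurka at the low concentrations of doxorubicin and WY14643, of Tyms in medium, and of Ccnb2 and E2f1 were added after their values were seen, as were the values of Aurka, Ccnf and Tyms with acetaminophen, Pcna and Mki67 with ranitidine, Top2a with doxorubicin and Tk1 with 200 µM WY14643. Alternatives were DESeq2 1.42.0, RLE size factors, no filter, no batch term, an added fold threshold, wells of a rat added, plate-matched vehicle wells and each replicate left out. Comparisons by vehicle row and between concentrations were chosen after seeing the data.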

Additional observations from a re-analysis of the deposited data

Results flagged for a closer look

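Of 96 member and treatment pairs named in the text, 5 had L2FC values that differed between the batches by the edgeR interaction test, adjusted over all genes tested. With 0.08 µM doxorubicin, batch 2 exceeded batch 1 by 1.52 for Aurka (adjusted p = 0.0173), by 1.82 for Ccna2 (adjusted p = 0.0413) and by 1.86 for Birc5 (adjusted p = 0.0258). With 4000 µM ranitidine, Mcm5 had an L2FC of -2.66 in batch 1 and -0.90 in batch 2, a difference of 1.75 (adjusted p = 0.0386). With 8 µM WY14643, Aurka had an L2FC of 0.07 in batch 1 and 1.60 in batch 2, a difference of 1.56 (adjusted p = 0.0363). A batch is 1 rat, so rat and batch cannot be told apart. In 26 sets of values over the 6 vehicle or 6 medium wells of batch 2 (summed levels and named genes), no well stood apart by Dixon's test, which sets apart about 5% of groups by chance.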

How the results depend on the processing

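Counts of calls are given as higher and lower at high concentrations, then higher and lower at low concentrations, and were 36, 170, 42 and 5. Shares of all genes are given above for only some of the settings below. The other counts do not show whether all genes moved alike, which was not tested. With an absolute L2FC of at least 1 as well they were 12, 110, 15 and 0, in batch 2 alone 59, 89, 91 and 1, with plate-matched vehicle wells in batch 2 52, 75, 64 and 2, and with the wells of a rat added 20, 127, 5 and 2. In batch 1 alone they were 17, 215, 0 and 15. Leaving out a replicate gave 30 to 38, 130 to 149, 21 to 49 and 2 to 5. With no replicate block (batch left out) they were 35, 166, 36 and 5, and the block changed no count by over 1.5 times. Without the filter, 3 were lower at low concentrations. Against vehicle of row F they were 28, 153, 7 and 2, of row G 38, 145, 47 and 3, and 21 pairs were higher in high against low concentrations. The S phase median was above the mitosis median at 3 of 14 low concentrations, at 5 in batch 1 alone, and at 1 to 3 with a replicate left out; at high concentrations it was above at 10 to 13 of 14 under the alternatives.
For 2 µM doxorubicin (6 calls) the count was 11 in batch 1 alone, 2 against row G, 19 against the low concentration, 2 to 3 with a replicate left out, and 1 with the L2FC threshold or the wells of a rat added. For 8 µM WY14643 (13 calls) it was 0 with the L2FC threshold, 5 against row F or with the wells of a rat added, and 8 to 11 with a replicate left out. For 200 µM WY14643 (11 calls) it was 21 in batch 1 alone, 7 against row G, 4 against the low concentration, 5 to 9 with a replicate left out, and 5 in batch 2 alone, with plate-matched vehicle wells, the L2FC threshold or the wells of a rat added. For medium (3 calls) it was 1 with the L2FC threshold or row F, 0 with the wells of a rat added and 2 with a replicate left out. Apart from shares given above, these counts stand without those of all genes under the same setting. They therefore do not show a change particular to the members. The causes were not tested. Of 96 named pairs, 36 were called the same way under every alternative, and DESeq2 and RLE size factors kept all 96. Members with few reads limit the precision: 11 of 40 could not be tested in WT.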
